A study of Gossypium hirsutum with 3 samples.

Results

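A set of 4 cotton (Gossypium hirsutum) genes that stand at either end of ethylene signalling are described here in developing fiber. They are 3 genes whose best sequence matches are DNA-binding proteins of the ethylene response factor family, Contig13751, Contig11028 and TMIRS_117_D04.F, and 1 gene, Contig15412, whose best match is an ethylene receptor. They were picked by name, with their ratios between stages already known, and every gene spot that carries one of the names was taken. That gave 4 genes of 11143 on the array, 12 probes of 40372 and 14 spots of 42034. Because the choice drew on the same ratios, the values of the 4 genes are a description. Where a fit over all genes is counted, whether a member passed its threshold is stated as a count only and supports nothing.

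The study asked which genes differ between fiber that has elongated for some days and fiber that has just begun to grow out. The later stage was 10 dpa fiber (days post anthesis, counted from flowering), dissected from the ovule, and the earlier one was 1 dpa fiber, the initials shaken off frozen ovules with glass beads. Both came from field-grown, untreated plants, and the methods describe polyribosomal RNA where the sample labels say total RNA. Labelled cDNA of both stages was hybridized to each of 3 custom 2-colour arrays, called replicates 1 to 3 without any order. On replicates 1 and 3 the 10 dpa fiber carried the red dye Cy5 and the 1 dpa fiber the green dye Cy3, and on replicate 2 the dyes were exchanged. The methods state 3 biological replications of each tissue, taken on different days. The RNA codes of the arrays differ from this. Replicates 1 and 3 carry the same code for 10 dpa RNA, and replicates 1 and 2 the same code for 1 dpa RNA. If equal codes mean equal RNA, the 3 arrays are not fully separate samples and their spread can be partly technical. On replicate 2 the exchanged dyes and the different 10 dpa code cannot be told apart.

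Ethylene is a gaseous plant hormone that is made from methionine by way of S-adenosylmethionine. Its receptors sit in the membrane of the endoplasmic reticulum and, in Arabidopsis, keep the kinase CTR1 active while no ethylene is bound, so that the pathway is off. Once ethylene binds, the EIN3 proteins accumulate and switch on ethylene response factors, which carry an AP2 domain and bind promoters of defence, stress and growth genes. In cotton, ethylene is known for promoting fiber elongation in cultured ovules.

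The array files give the mean brightness of every spot in each dye on a linear scale. A log2 ratio below is that of 10 dpa over 1 dpa fiber after correction for background and dye, so that a negative value means a weaker signal in 10 dpa fiber. The median log2 ratio of all 11143 genes was -0.04, and the 5th and 95th percentiles were -0.66 and 0.85. On each array, 81.2% to 91.4% of gene spots in the 10 dpa channel and 86% to 92.2% in the 1 dpa channel were brighter than the 95th percentile of 314 negative control spots. The median of these control spots was 73.2, 84.5 and 62.9 in the 10 dpa channel and 164, 62.9 and 83.7 in the 1 dpa channel on replicates 1, 2 and 3, so the blank signal of replicate 1 was highest in the 1 dpa channel. The ratios of replicates 2 and 3 were the most alike (r = 0.839 across genes, which are no independent replicates), and r was 0.575 for replicates 1 and 2 and 0.601 for replicates 1 and 3. The 6 fiber benchmark genes, among them MYB2 and MYB109, all had spots above the negative controls in both stages on all arrays.

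The receptor-like gene and both of the first-named response factors lay on opposite sides of the median. mRNA for Contig15412, the receptor, was 1.67-fold higher in 10 dpa fiber, whereas Contig13751 and Contig11028 were 2.23-fold and 2.26-fold lower in 10 dpa fiber. The third response factor, TMIRS_117_D04.F, had a mean log2 ratio of -0.22 ± 0.27 and its sign differed between arrays. A lower share of cells with a message and less message per cell cannot be told apart on these arrays. Across all genes, 93.6% had a lower mean ratio than Contig15412, and 19.7% a lower one than TMIRS_117_D04.F. For Contig13751 and Contig11028 the share was 1.21% and 1.12%. In limma's fit over all genes, 3 of the 4 members were past the adjusted p of 0.05, 1 higher and 2 lower in 10 dpa fiber, beside 13.6% of all genes (8.03% higher and 5.61% lower). With a fold of 2 and an unadjusted p of 0.05 as the limits, which the methods state, 2 members were lower, beside 1.98% of all genes, and 0 members were higher, beside 3.6%. Scaling between arrays left 0 of all 11143 genes past the adjusted p, as did an F-test of each gene alone. In both settings 0 of the 4 members were thus past it. With the channels as single samples, 948 genes were past it and Contig13751 was not. Nothing is read from these counts, since the members were chosen with the contrast known.

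Contig15412 best matched CS-ETR2, an ethylene receptor of cucumber. ETR2-type receptors are histidine kinase-like proteins that, without ethylene, hold the response pathway shut. Its 4 probes were brighter in 10 dpa fiber than in 1 dpa fiber at every spot of every array, before any correction. On replicate 1 the 4 spots read 766, 1741, 4613 and 5883 in 10 dpa fiber, against 296, 853, 2469 and 3411 in 1 dpa fiber, in the order of probes 201436_1 to 201436_4. On replicate 2, with the dyes exchanged, they read 482, 1267, 2266 and 4268 in 10 dpa fiber, against 328, 1122, 1668 and 3709 in 1 dpa fiber. On replicate 3 they read 414, 1112, 2126 and 4090 in 10 dpa fiber, against 225, 574, 965 and 1794 in 1 dpa fiber. The excess of 10 dpa fiber was thus seen in both dye orientations, and it was smallest in the raw values of replicate 2, where the 10 dpa fiber was green.

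After correction, Contig15412 had log2 ratios of 0.61, 0.79 and 0.81 on replicates 1, 2 and 3, with a mean of 0.74 ± 0.11 (SD, n = 3 arrays). The spread between arrays was small, since 17% of all genes had a smaller SD. All 12 of its probe values, 4 probes on 3 arrays, were positive. The probe means ran from 0.54 for 201436_4 to 1.06 for 201436_1, with 0.69 for 201436_2 and 0.67 for 201436_3. Most of this spread came from replicate 1, where the probes gave 1.5, 0.69, 0.23 and 0.03. On replicate 2 they gave 0.87, 0.62, 0.93 and 0.76, and on replicate 3 they gave 0.81, 0.74, 0.85 and 0.83. Replicates 2 and 3 therefore placed all 4 probes within a narrow band, and the replicate 1 value rested on probes that differed among themselves.

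Contig13751 best matched a TINY-like transcription factor of Arabidopsis. TINY and its relatives carry an AP2 domain and can bind both the ethylene response element and the dehydration response element. Its spots were dim, and the 1 dpa spot was the brighter one of each pair for all 3 probes on all 3 arrays. On replicate 1 the probes 205952_1, 205952_2 and 205952_3 read 175, 151 and 203 in 10 dpa fiber, against 222, 290 and 376 in 1 dpa fiber. On replicate 2 they read 100, 93.6 and 111 in 10 dpa fiber, against 223, 321 and 381 in 1 dpa fiber. On replicate 3 they read 107, 111 and 167 in 10 dpa fiber, against 232, 330 and 462 in 1 dpa fiber. These uncorrected intensities of both stages did not overlap on any array, but the channels also differed in blank signal. On replicate 1 the median of the negative controls was 73.2 in the 10 dpa channel and 164 in the 1 dpa channel. The raw order on that array is therefore not an order of signal above blank. The 10 dpa values were close to blank, however, as the 95th percentile of the negative controls in that channel was 133, 94.5 and 71.2 on replicates 1, 2 and 3, and the spot of 205952_2 on replicate 2 fell below it. In the 1 dpa channel the same percentile was 187, 74.6 and 92.2, and all spots passed it. The scanner software also marked the green spot of 205952_1 as not found on all 3 arrays.

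The log2 ratio of Contig13751 was -0.44, -1.61 and -1.42 on replicates 1, 2 and 3, a mean of -1.16 ± 0.63 (SD, n = 3 arrays). Its sign was the same on all arrays but its size was not, and 95.4% of all genes had a smaller SD. By probe the mean was -0.70 ± 0.73 for 205952_1, -1.38 ± 0.63 for 205952_2 and -1.39 ± 0.53 for 205952_3. Of its 9 probe values, 8 were negative, and the exception was 205952_1 on replicate 1 at 0.14. The raw spot of that probe was dimmer in 10 dpa fiber (175 against 222). The median blank signal was lower in that channel too (73.2 against 164), so the raw order does not settle the sign. The SD over the 3 probe means of Contig13751 was 0.39, where the median over the 1706 genes with 3 probes was 0.15. Replicate 1, with its higher blank signal in the 1 dpa channel, gave the ratio nearest to 0 for each of the 3 probes, and the part of that blank signal in the ratio was not tested. With the median of the negative controls subtracted from each channel, the ratio was -0.66, -3.45 and -2.24 on replicates 1, 2 and 3, with a mean of -2.12. The sign was the same in both forms on all 3 arrays, and the size was not.

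Contig11028 best matched the ethylene-responsive element binding protein EREBP5 of tobacco, with a weaker sequence match than the other members had. EREBPs were named for binding the GCC-containing element of ethylene-inducible defence genes. On replicate 1 the probes 200309_1 to 200309_4 read 389, 360, 307 and 654 in 10 dpa fiber, against 515, 828, 449 and 1458 in 1 dpa fiber. On replicate 2 they read 171, 615, 115 and 270 in 10 dpa fiber, against 389, 747, 420 and 1411 in 1 dpa fiber. On replicate 3 they read 237, 602, 206 and 409 in 10 dpa fiber, against 444, 740, 521 and 1575 in 1 dpa fiber. Each spot was dimmer in 10 dpa fiber, in both dye orientations, and all 12 pairs were above the negative controls in both stages. The ranges over the 4 probes overlapped between stages, because probes of a gene differ in brightness.

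Its log2 ratios of -1.0, -1.22 and -1.30 on replicates 1, 2 and 3 averaged -1.17 ± 0.15 (SD, n = 3 arrays), almost the mean of Contig13751 with a far smaller spread between arrays, and 29.7% of all genes had a smaller SD. Beneath this steady mean the probes disagreed. Probe 200309_4 read -1.53, -2.07 and -2.19, or 3.82-fold lower in 10 dpa fiber on average, and 200309_3 read -0.56, -1.85 and -1.47. Probe 200309_1 read -0.49, -1.05 and -1.03. Probe 200309_2 ran against the others over the arrays, with -1.44 on replicate 1, 0.09 on replicate 2 and -0.50 on replicate 3, and held the only positive value of the 12. The SD over the 4 probe means was 0.58, and 96.2% of the 8604 genes with 4 probes had a smaller one (median 0.17). For Contig15412, with as many probes, it was 0.22, and 65.5% of these genes had a smaller one. Without 200309_4 the gene's mean was -0.92, and without 200309_2 it was -1.36, so that the sign was the same with either probe left out and the first of these values was under the 2-fold limit.

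**Figure D1:**
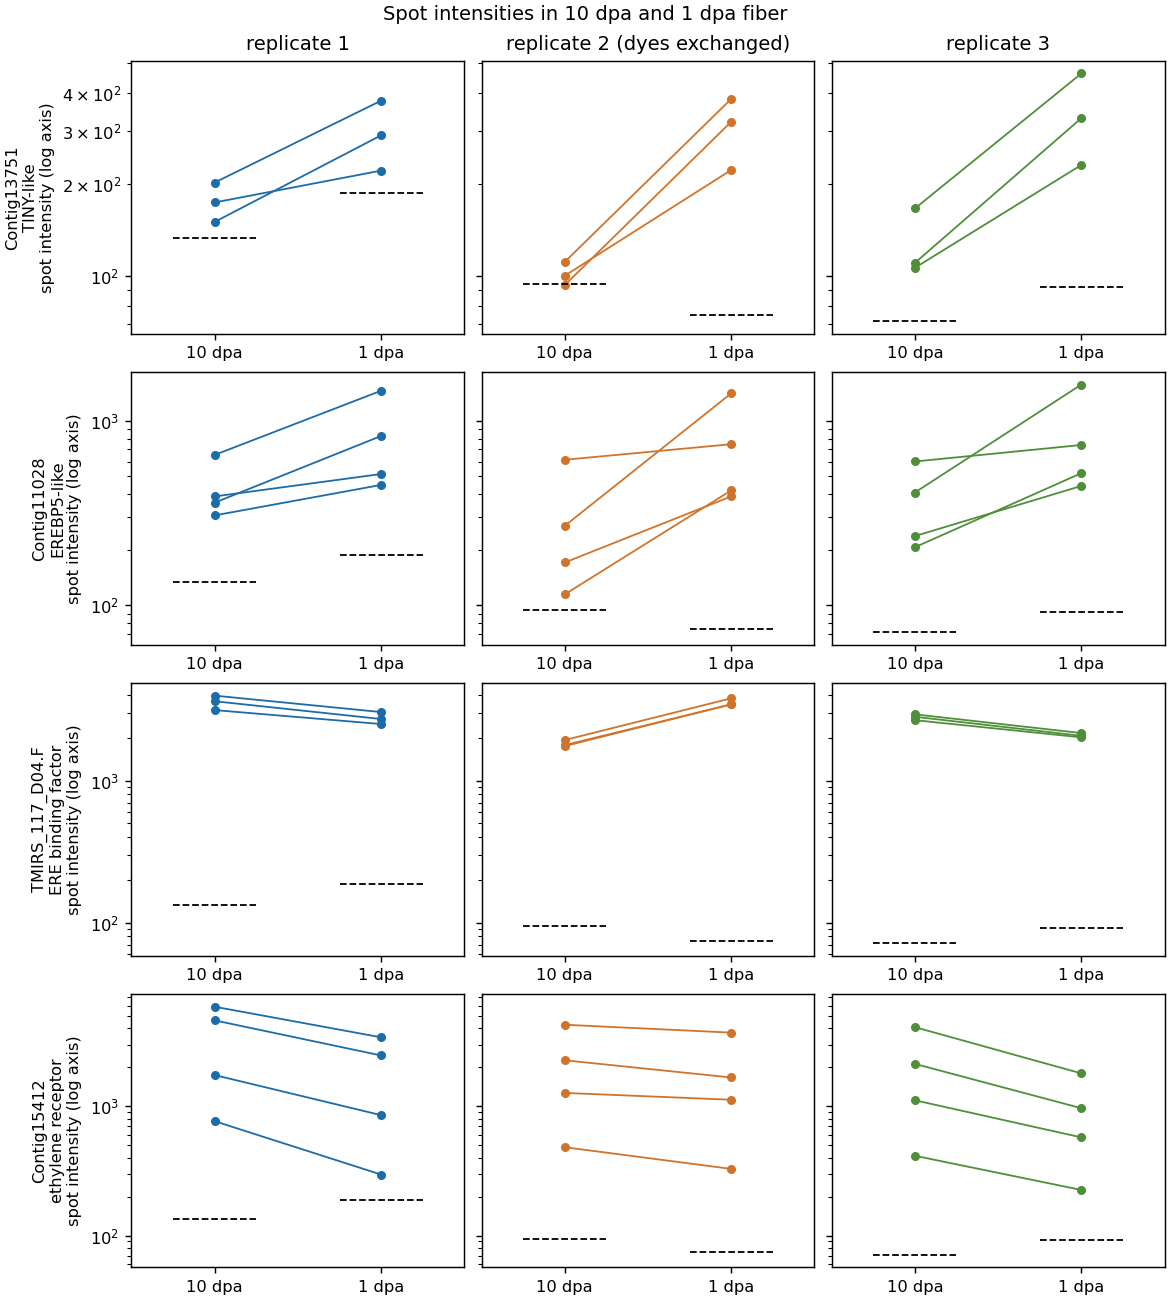
Spot intensity (linear scanner units on a log axis) of each member (rows) in 10 dpa and 1 dpa fiber on each array (columns). Points are spots, lines join both channels of a spot, and dashed lines are the 95th percentile of the negative controls in that channel. All lines run upward toward 1 dpa fiber for Contig13751 and Contig11028 and downward for Contig15412, while those of TMIRS_117_D04.F turn on replicate 2.

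TMIRS_117_D04.F best matched a putative ethylene responsive element binding factor of Arabidopsis, a class of proteins that includes both activators and repressors of ethylene-induced genes. It is represented by 1 probe, 210161_2, printed in 3 spots, so its spots measure printing and hybridization error and not agreement between sequences. On replicate 1 the 3 spots read 3634, 3147 and 3980 in 10 dpa fiber, against 2722, 2509 and 3048 in 1 dpa fiber. On replicate 2 they read 1754, 1935 and 1783 in 10 dpa fiber, against 3463, 3812 and 3451 in 1 dpa fiber. On replicate 3 they read 2824, 2938 and 2672 in 10 dpa fiber, against 2074, 2168 and 2022 in 1 dpa fiber. Within each array the stages did not overlap, but 10 dpa fiber was brighter on replicates 1 and 3 and 1 dpa fiber on replicate 2. In other words, the red channel was the brighter one at all 9 spots. As a log2 ratio of red over green before correction this excess was 0.33 to 0.42 on replicate 1, 0.95 to 0.98 on replicate 2 and 0.40 to 0.45 on replicate 3.

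After correction for the dye by loess, which fits the ratio to the brightness of the spots on each array, TMIRS_117_D04.F had log2 ratios of -0.28, -0.46 and 0.08 on replicates 1, 2 and 3 (mean -0.22 ± 0.27, SD, n = 3 arrays). The identical spots were much closer to each other than the arrays were, with an SD of 0.035, 0.014 and 0.020 on replicates 1, 2 and 3. Among the 831 genes with 1 probe in 3 spots, the median of this SD was 0.139, 0.043 and 0.046, and the median SD over arrays was 0.246. The spread of this gene thus lay between arrays and not within them. When each array was only centred on its median, the ratios were 0.29, -0.76 and 0.36, with a mean of -0.04. Neither form of the ratio places the gene apart from the all-gene median by more than the SD over its arrays. The study grouped it with transcription factors regulated like MYB109 and MYB2, which it reported as higher in 1 dpa fiber than in ovules and not lower in 10 dpa fiber. Of the 4 genes of that group found here, 0 were past the adjusted p in limma's fit, beside 13.6% of all genes. Their median log2 ratio was 0.09, with 1 at an unadjusted p under 0.05 in limma and 1 by an F-test of each gene alone. Of all 11143 genes, 2773 were under that p in limma and 1811 by the F-test. The ovule contrast was not analysed here, so these counts do not test the grouping.

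**Figure D2:**
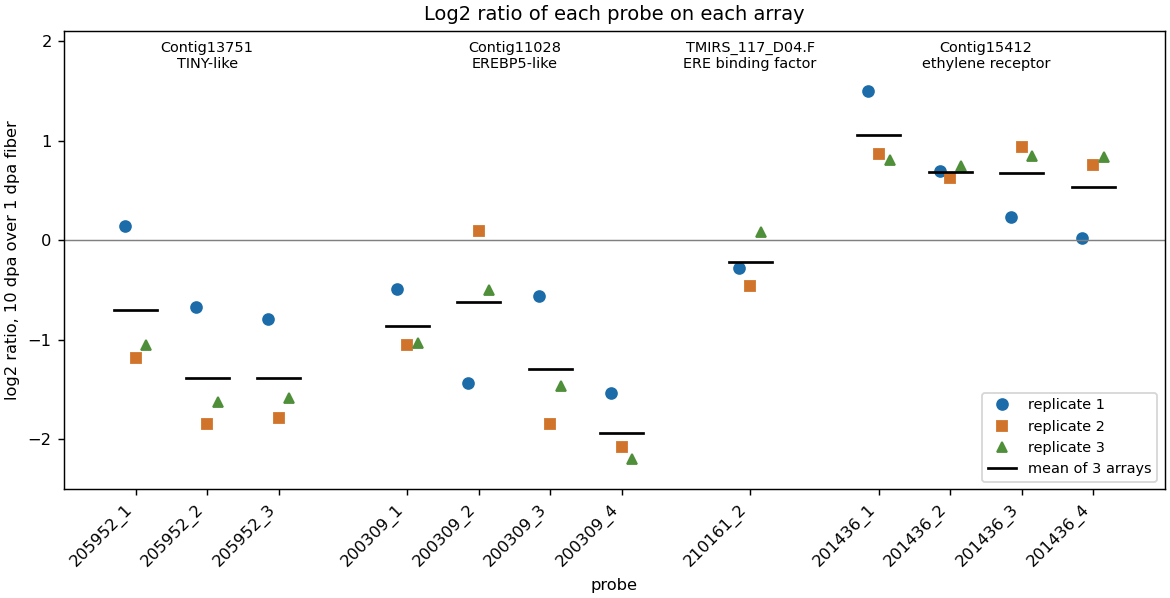
Log2 ratio of 10 dpa over 1 dpa fiber of each of the 12 probes after background correction and loess. Symbols are the 3 arrays and bars are their means. The 4 probes of Contig15412 lie above 0 on every array, 8 of 9 values of Contig13751 and 11 of 12 of Contig11028 lie below it, and the single probe of TMIRS_117_D04.F straddles it.

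Set side by side over the arrays, the members formed no common pattern. The root mean square difference of the log2 ratio over the 3 arrays was 0.40 between Contig13751 and Contig11028, the closest pair, and 1.99 between Contig13751 and Contig15412, the farthest. TMIRS_117_D04.F was 1.09 from Contig13751, 1.0 from Contig11028 and 0.98 from Contig15412. By the same measure over 640 described genes, the gene nearest to Contig13751 was the putative AT-hook DNA-binding protein Contig14677 (0.088). Next came Contig1429, described as a 50S ribosomal protein L9 (0.15), and Contig13630, described as a negatively light-regulated protein (0.18). The gene nearest to Contig11028 was the ubiquitin-like Contig14146 (0.066), followed by genes described as ribosomal proteins L8, Contig3832 (0.073), and L34, Contig13261 (0.084). TMIRS_117_D04.F was nearest to Contig14914 (0.13), which matched a rice protein without a described role, and to the MYB-related Contig5962 (0.15). Contig15412 had a putative DNA-binding protein nearest (0.068), then the phi-1-like Contig4161 (0.079), and as the third another putative ethylene receptor (0.10). These distances rest on 3 arrays that both genes share and describe likeness of pattern alone.

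Of the 11143 genes, 1020 had a description, and 2 of these besides the members were described with words of the ethylene pathway. They were that other receptor, a clone of the HYP7 set that best matched a sequence of Gossypium barbadense, and the CTR1-like kinase Contig16256. Both rose in 10 dpa fiber. The HYP7 receptor had log2 ratios of 0.64, 0.63 and 0.74, a mean of 0.67 ± 0.06 with adjusted p = 0.0164 from limma (SD, n = 3 arrays), or 1.59-fold. Its 3 probes averaged 0.78, 0.39 and 0.85. Contig16256, related to the kinase that receptors keep active, had 0.44, 1.02 and 1.15, a mean of 0.87 ± 0.38 (adjusted p = 0.0224 from limma), or 1.83-fold, and its 4 probes averaged 0.76 to 0.91. Thus the receptor Contig15412, the second receptor and the kinase each had positive ratios on all 3 arrays, as 22.4% of all genes did, and the response factors Contig13751 and Contig11028 had negative ones on all 3, as did 20.1%. Their descriptions come from a file of genes that varied on the study's arrays, the present ones included, so their direction may not be independent evidence. Their calls were not firm: that of the HYP7 receptor ended without replicate 3 (adjusted p = 0.116) and without replicate 2 (adjusted p = 0.0533), and that of Contig16256 without replicate 3 (adjusted p = 0.0530). Over all settings the adjusted p ran from 0.0127 to 0.176 for the HYP7 receptor and from 0.000551 to 0.323 for Contig16256.

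**Figure D3:**
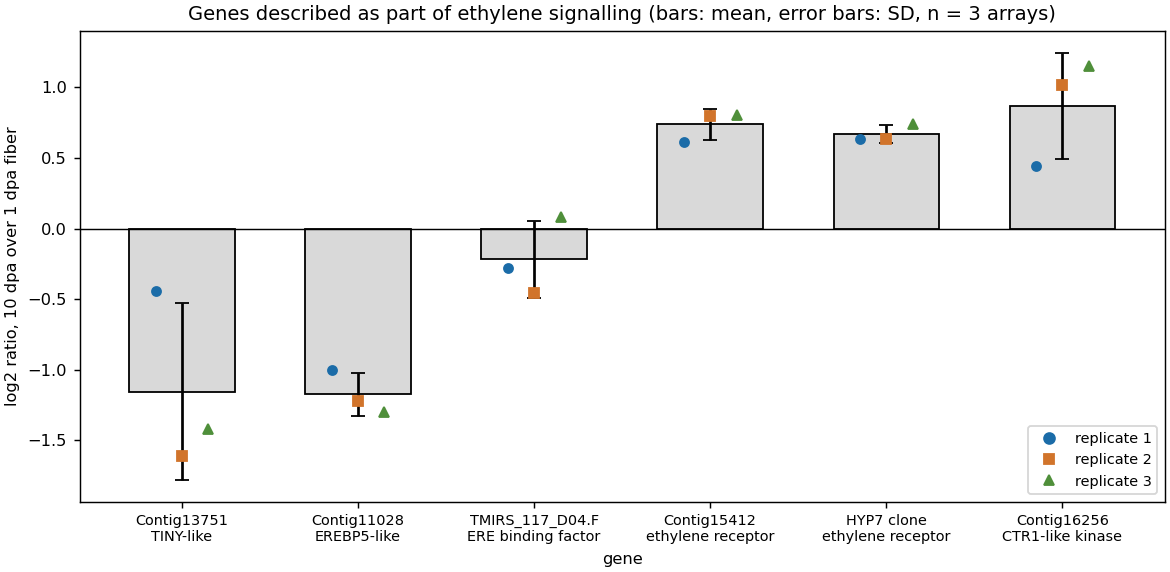
Mean log2 ratio of 10 dpa over 1 dpa fiber (bars) with SD (error bars, n = 3 arrays) and each array's value (symbols) for the 4 members and both other genes described as part of ethylene signalling. The receptors and the CTR1-like kinase stand between 0.67 and 0.87, Contig13751 and Contig11028 near -1.2, and TMIRS_117_D04.F at -0.22.

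Among genes that handle the precursors of the hormone, 2 described as enzymes of methionine and S-adenosylmethionine metabolism were found. Of these, 0 of 2 were past the adjusted p of 0.05 in limma's fit, where 13.6% of all genes were past it. Both were at an unadjusted p under 0.05 in limma and 1 by an F-test of each gene alone. Of all 11143 genes, 2773 were under it in limma and 1811 by the F-test. The S-adenosylmethionine:methionine S-methyltransferase TMIRS_228_F12.F, which forms S-methylmethionine, had a log2 ratio of -0.54 ± 0.26 (adjusted p = 0.0621). A homocysteine methyltransferase, the enzyme that makes methionine, had -0.47 ± 0.11 (adjusted p = 0.0567). Both were negative on all 3 arrays, as were 20.1% of all genes. The methyltransferase TMIRS_228_F12.F passed with the median of probes (adjusted p = 0.0385) and without replicate 1 (adjusted p = 0.0449), and the homocysteine methyltransferase with no background correction (adjusted p = 0.0431) and without replicate 1 (adjusted p = 0.0488). Over all settings the adjusted p ran from 0.0385 to 0.53 for TMIRS_228_F12.F and from 0.0431 to 0.809 for the homocysteine methyltransferase. Only 1020 of the 11143 genes had a description. None of these was described as ACC synthase or ACC oxidase, the enzymes of the last steps of ethylene synthesis. Genes without a description could not be searched for them.

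Contig13751 and Contig11028 were also among 9 transcription factors that the study named as lower in 10 dpa fiber. The median log2 ratio of the 9 was -1.22, and it was -1.54 over the other 7, beside -0.04 over all genes, so both members lay on the smaller side of that list. The study chose these genes on these samples, and the list's direction is therefore not independent evidence. Of the words taken to mark green tissue, photosystem found Contig1440, a photosystem I subunit, which was 4.69-fold higher in 10 dpa fiber (adjusted p = 0.00215 from limma). Its mean spot intensity was 14594, 3727 and 4606 in 10 dpa fiber, against 4103, 1489 and 707 in 1 dpa fiber, on replicates 1, 2 and 3. The word plastocyanin found Contig1490, which was 1.95-fold higher (adjusted p = 0.0135 from limma), but a plastocyanin-like domain is that of cell-surface copper proteins and does not mark photosynthesis. Contig1440 was thus higher in the same stage as Contig15412, and the part of green tissue in the ratios of the members was not tested.

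Under the other ways of processing, Contig13751, Contig11028 and Contig15412 kept their sign in every setting run, and the mean of TMIRS_117_D04.F stayed below 0 but came to -0.04 with median centring. Leaving out each array in turn, Contig13751 ranged from -1.51 without replicate 1 to -0.93 without replicate 2, the widest range of the 4. Contig11028 ranged from -1.26 to -1.11, TMIRS_117_D04.F from -0.37 to -0.10, and Contig15412 from 0.70 to 0.80. The call of Contig15412 ended without replicate 3.

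**Figure D4:**
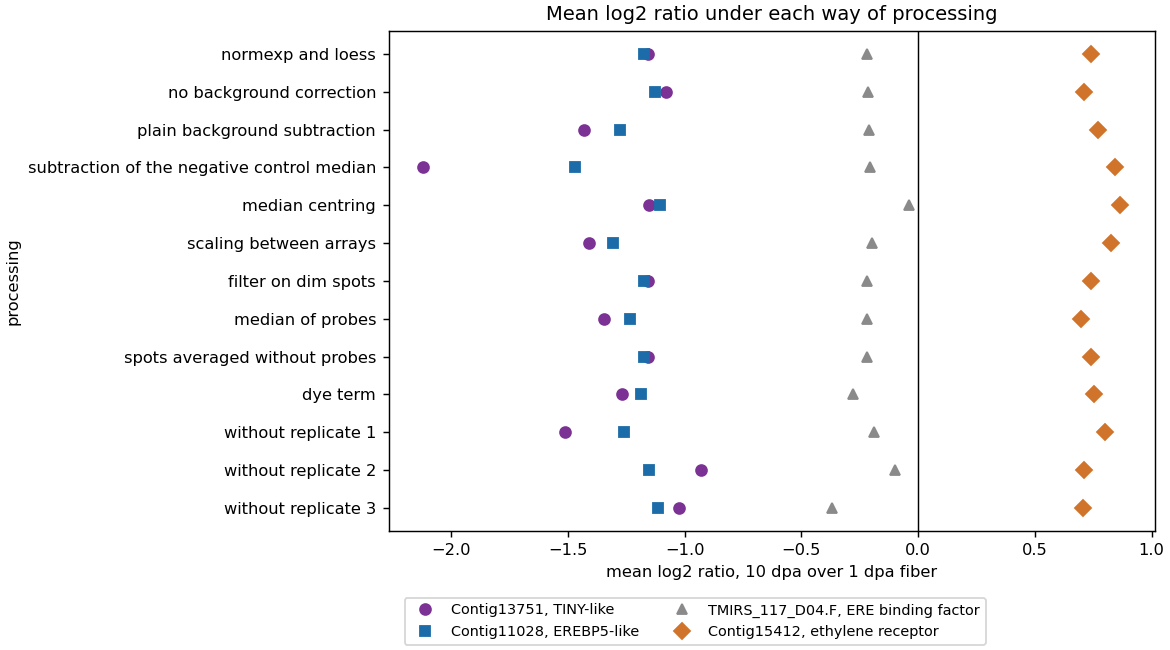
Mean log2 ratio of 10 dpa over 1 dpa fiber of each member (symbols) under each way of processing (rows), including each array left out. Contig15412 stays between 0.70 and 0.87 and Contig11028 between -1.47 and -1.11, whereas Contig13751 runs from -2.12 to -0.93.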

How the data were processed

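The 3 arrays of 10 dpa and 1 dpa fiber were analysed, and each array gives its own ratio of the stages. The study's ovule arrays were not analysed here. The authors' scanner files give mean spot and mean local background intensity in both dyes, on a linear scale and uncorrected. A deposited series table holds log2 ratios of red over green, uncentred and with the dye exchange not turned. Its identifiers matched 0 of 42034 spots, so it served to check which dye was on top and for nothing else.

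Intensities were corrected by limma 3.58.1 (R 4.3.3, jsonlite 2.0.0; figures in matplotlib 3.10.9) with normexp (offset 50) and loess within arrays, giving no weight to 2256 control spots. Values were averaged over spots within a probe and then over probes within a gene, and replicate 2 was turned. Ratios of all 11143 genes were tested against 0 with lmFit and eBayes, with Benjamini-Hochberg adjustment and a threshold of 0.05. The methods' ANOVA needs the ovule arrays and was not run. The procedure was tested on simulated data.

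The members and all gene lists were chosen with earlier results of these data known. Named are the 4 members, all genes with ethylene words in their description, and for each member the 3 nearest genes among 640 with an expect value of at most 1e-05. Descriptions come from the study's additional file, and the word boundary around ethylene was refined after they were seen. The result for 1 gene of the transcription factor lists is not reported here. The alternatives were other background corrections, normalizations, filters, summaries, fits and tests, a probe left out and an array left out. With 3 arrays the precision of each ratio is limited.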

Additional observations from a re-analysis of the deposited data

How the results depend on the processing

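Of 160 values recomputed under other settings, 134 stayed on their side of the threshold or within their spread and none reversed. The members' log2 ratios were identical to the main ones with spots averaged without probes, with the channels as single samples and with the filter on dim spots. Those ratios are counted in the 134 but did not put the values to a test. The fit called 1520 genes (895 higher and 625 lower in 10 dpa fiber), and 703 with median centring (512 higher and 191 lower), 948 with the channels as single samples and no replicate block, and between 1250 and 2191 with each replicate left out. Without replicate 1 the split was 979 higher and 1212 lower. Limma after scaling between arrays gave 0 calls and an F-test of each gene alone gave 0, with 2697 and 1811 genes at an unadjusted p under 0.05. Accordingly 0 of the 4 members were called with scaling and 0 with the F-test, where 3 were before. Without replicate 3, 2 were called (Contig15412 was lost), as with no replicate block (Contig13751 was lost) and with the median of the negative controls subtracted (Contig15412 was lost), a setting chosen after seeing the data. That setting gave 1176 genes past 2-fold and an unadjusted p of 0.05 in place of 622, and ratios of -2.12 for Contig13751 and -1.47 for Contig11028. Contig15412 was at 0.87 with median centring. Contig11028 was at -1.36 without probe 200309_2 and at -0.92 without probe 200309_4. Leaving out each replicate, the ratio ranged from -1.51 to -0.93 for Contig13751, from -1.26 to -1.11 for Contig11028, from -0.37 to -0.10 for TMIRS_117_D04.F and from 0.70 to 0.80 for Contig15412, and the number of members called from 2 to 3. The call of the HYP7 receptor also ended with median centring (adjusted p = 0.0634), scaling (0.0766), the F-test (0.176) and the negative control median (0.0722), and that of Contig16256 with scaling (0.103), no replicate block (0.0529) and the F-test (0.323). Both genes of methionine metabolism passed without replicate 1 and in 1 other setting each. The causes were not tested. The fit of ratios within arrays is itself the paired analysis, since each array holds both stages, and the fit with no replicate block, with 948 calls against 1520, is the unpaired one. The deposited series table could not be run as an alternative, since its identifiers match no probe. Signal over background limits the ratio of Contig13751, whose 10 dpa spots lay close to the negative controls. The 1 dpa channel adds to this limit on replicate 1. There the spots of 205952_1 and 205952_2 read 222 and 290, beside 187 for the 95th percentile of the negative controls. A filter on dim spots gave the identical value of -1.16, so it changed nothing for this gene and does not test that limit.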
